A study of Mus musculus with 15 samples.

Results

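Fgfr2 encodes a receptor tyrosine kinase for fibroblast growth factors, and it is described here by its row in a table of changed cassette exons and by the tags that CLIP with an anti-Mbnl3 antibody gave over the same stretch. It is 1 of 84 genes and has 1 of the 98 events in that table. The gene was chosen by its listed change in exon inclusion and by its number of forelimb tags, so both are given as descriptions with no test of significance. Mouse embryos at day 15 gave the forelimbs. Mutant animals were homozygous for the Mbnl3 ΔE2 allele and are titled Mbnl3 KO, and controls were wild type (WT). RNA-seq was done on 3 mutant and 3 WT females, with no strain in their labels. HITS-CLIP, in which ultraviolet light joins RNA to protein before precipitation and sequencing of short tags, used the anti-Mbnl3 antibody Mb3/7 on BL6 forelimbs, with 3 libraries per genotype and 4 forelimbs pooled from 2 embryos in each. A further CLIP set came from C2C12 cells, a mouse myoblast line labelled WT and grown in medium with 20% serum. Removal of Mbnl3 from ΔE2 forelimbs was not tested here, nor whether the tags of those libraries came from RNA bound by Mbnl3.

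The extracellular part of FGFR2 carries immunoglobulin-like domains, and the end of the one nearest the membrane is encoded by either of a pair of alternative exons, IIIb and IIIc, which lie in that order and are normally used one in place of the other. Epithelia mainly make the IIIb form, which binds FGF7 and FGF10, whereas mesenchyme mainly makes the IIIc form, which binds other ligands such as FGF2 and FGF8. In the limb bud, exchange of signals between ectoderm and mesenchyme through these forms drives outgrowth. Muscleblind proteins bind RNA and regulate the choice of alternative exons.

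The Fgfr2 event spans 137341932 to 137344686 of chromosome 7 in the mm9 build, minus strand, as the table gives it (ends certain to 1 nt). The name of the event gives a listed exon of 148 nt, with an intron of 1077 nt before it and one of 1194 nt after it. The 2 flanking exons together take 336 nt, but the table does not say how these are split. The listed exon has the length of exon IIIb and, like it, is followed by a further exon. The table names no exon and no mm9 annotation was used, so the exons are called upstream, listed and downstream below. No sequence of the region is shown, because no mm9 genome was used.

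The CLIP libraries held 67279, 40531 and 59115 tags for ΔE2 and 35413, 74123 and 124309 for WT. Between ΔE2 replicates 2 and 3, 33916 molecules had identical position, strand and barcode (83.7% of the tags in replicate 2 and 57.4% in replicate 3), and the pair was counted as 1 library of 65730 tags. Sharing was not limited to them. ΔE2 replicate 1 shared 30.1% of its tags with WT replicate 3 and 14.9% with WT replicate 2, and WT replicates 2 and 3 shared 32.4% and 19.3% of theirs. WT replicate 1 shared 31.3% of its tags with WT replicate 3 and 29.8% with WT replicate 2. Over the Fgfr2 span, 54 distinct molecules were found in the 6 libraries, of which 34 were in ΔE2, 25 in WT and 5 in both genotypes. Of the 12 span tags of ΔE2 replicate 1, 4 were molecules also found in WT replicate 3, and 2 of these also in WT replicate 2.

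In mutant forelimbs the listed Fgfr2 exon had lower inclusion than in WT, with more tags on the junction that skips it. The junction from the upstream exon to the listed exon had 238 tags in the knockout column and 208 in the WT column of the authors' deposited table. The skipping junction had 136 tags in the knockout column and 61.5 in the WT column of the authors' deposited table. Knockout over WT, the skipping junction was therefore 2.20 times as high and the upstream inclusion junction 1.14 times. Summed tags of all listed events had a median ratio of 1.73 (quartiles 1.47 and 1.96), and those of the Fgfr2 event a ratio of 1.45. Set against that median, skipping tags stood at 1.27 and upstream inclusion tags at 0.66.

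**Figure D1:**
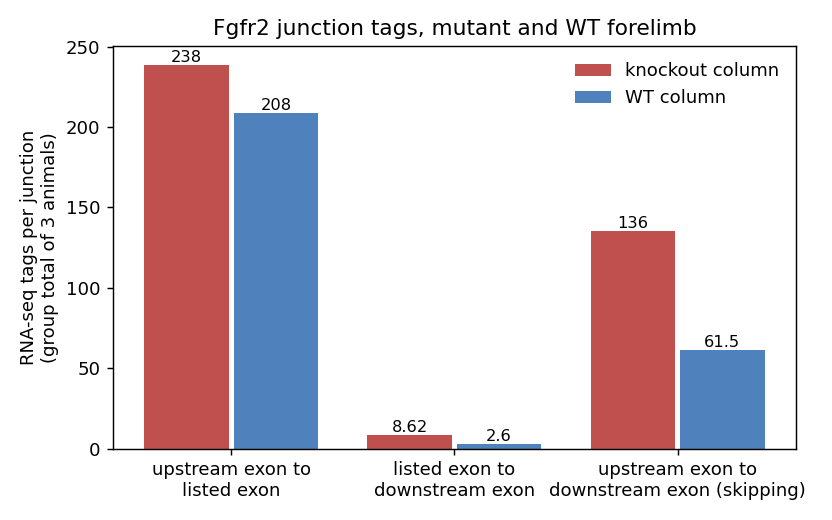
RNA-seq tags on the 3 junctions of the Fgfr2 event, as the authors' totals of 3 animals per genotype, without error bars because no values per animal were used. In the authors' deposited table the skipping junction had 136 tags in the knockout column and 61.5 in the WT column, and the junction from the listed to the downstream exon was nearly empty in both. Tags are not scaled for depth, and summed tags of all listed events had a median knockout over WT ratio of 1.73.

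Inclusion, taken as the mean of the 2 inclusion junctions over that mean plus the skipping junction, was 47.7% in the knockout column (95% Wilson interval 41.7 to 53.8) and 63.2% in the WT column (55.6 to 70.0). The difference, knockout minus WT, was -15.5 percentage points. The intervals cover counting error only, since the table holds 1 total per genotype and no spread between animals. The authors' deposited table gave the event a Fisher p of 0.00136 and an adjusted p of 0.0294, which likewise rest on group totals. The ranks and adjusted p-values of that table imply about 2834 tested events, of which at least 187, or 6.60%, were called at an adjusted p of 0.05 or less. Because the gene was picked for this change, nothing is read from that share.

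The 2 inclusion junctions were far from equal. In the authors' deposited table the junction from the listed to the downstream exon had 8.62 tags in the knockout column and 2.60 in the WT column. That was 3.61% of the upstream inclusion junction in the knockout column and 1.25% in the WT column. Across the 98 events, the weaker inclusion junction had a median of 57.0% of the stronger one in the knockout column and 58.1% in the WT column. Only 5 events were under 5% in both columns. These were Fgfr2, Mbnl1, Rbm9 (its 40-nt exon), Ccdc127 and 2510006D16Rik, named after their values were seen. With the upstream inclusion junction alone, Fgfr2 inclusion was 63.8% in the knockout column and 77.2% in the WT column, a difference of -13.5 points. With the downstream inclusion junction alone the sign turned, at 5.98% in the knockout column and 4.05% in the WT column, so the direction rests on the upstream junction. That turn of sign rests on only 8.62 and 2.60 tags. If the listed exon is IIIb and the downstream one IIIc, this junction would join exons that are normally not used together. Inclusion from the mean of both junctions is lowered in both columns by this nearly empty junction.

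Forelimbs hold skin epithelium, cartilage, muscle and connective tissue. Since whole forelimbs were sequenced, fewer cells of a type and less of its RNA per cell cannot be told apart. None of 7 epithelium markers and 5 mesenchyme markers had an event in the exon table, and no gene levels were used, so the part of cell composition in the exon change was not tested.

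Among the listed events Fgfr2 stood in the middle by size. Its decrease ranked 25th of 45 decreases, whose median was -15.6 points, and the smallest change of either direction in the table was 10.1 points. Pairs of inclusion values were compared by the mean of both junctions, which for Fgfr2 is lowered by its nearly empty downstream junction. The closest pair belonged to Lef1, a transcription factor of Wnt signalling, 4.45 points away over the 2 columns. Its exon stood at 43.3% in the knockout column and 62.2% in the WT column. Next came Cuedc2, a ubiquitin-binding protein, at 36.4% in the knockout column and 64.3% in the WT column, and Gatad2a, a subunit of the NuRD chromatin complex, at 57.9% in the knockout column and 68.0% in the WT column. Both lay 11.3 points from Fgfr2.

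**Figure D2:**
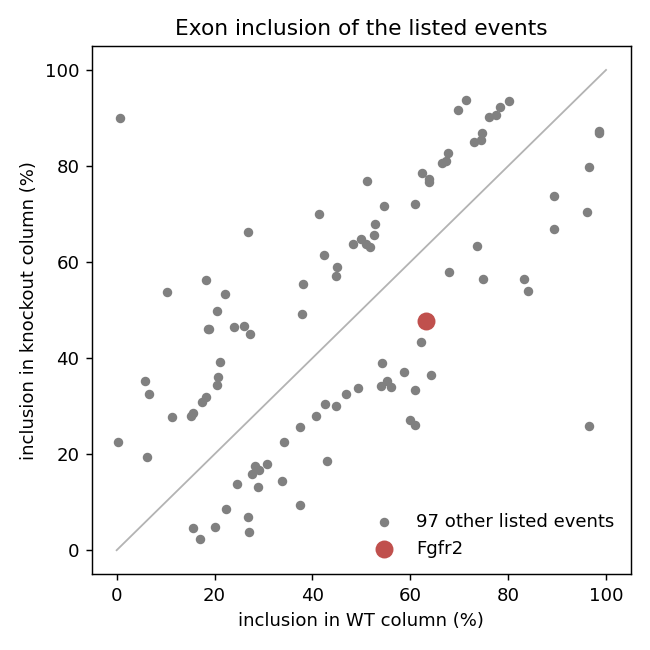
Inclusion in the knockout column (vertical, %) against the WT column (horizontal, %) for the 98 listed events, 1 point per event, with equal inclusion as a line. Fgfr2, at 47.7% in the knockout column and 63.2% in the WT column, lies below the line with 44 other events. Its values are means of both inclusion junctions, lowered by the nearly empty downstream one.

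The table lists 98, or 3.46%, of the about 2834 events that were tested, and the number of tested events per gene is not known, so few members of a short list can stand in it and nothing is read from their counts. Of the 23 symbols Fgf1 to Fgf23, not all of which need be mouse genes or receptor ligands, 0 had a listed event. The same held for 36 genes of signal relay and feedback, and of 5 FGF receptors Fgfr2 was the 1 listed. Of 21 factors known for the choice between exons IIIb and IIIc, or related to such factors, 2 were listed, with 3 events. Rbm9, now named Rbfox2, is an RNA-binding protein of the Fox family. In the authors' deposited table its 43-nt exon had lower inclusion in the knockout column, at 34.3% against 54.0% in the WT column (adjusted p = 0.000432). The authors' deposited table gave its 40-nt exon higher inclusion in the knockout column, at 76.7% against 63.8% in the WT column (adjusted p = 0.0246). These 2 Rbm9 events share a junction, with 70.8 tags in the knockout column and 73.4 in the WT column. It counts as inclusion for the 43-nt exon and as skipping for the 40-nt exon, so the 2 events are not independent. Mbnl1, another muscleblind gene, had higher inclusion of a 223-nt exon in the authors' deposited table, at 63.7% in the knockout column and 48.3% in the WT column (adjusted p = 0.0396). Its inclusion junctions had 176 and 3.03 tags in the knockout column and 74.0 and 3.04 in the WT column. As for Fgfr2, a nearly empty junction lowers the mean inclusion of this exon and of the 40-nt exon of Rbm9.

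Tags from the Fgfr2 span were present in every forelimb library and on the transcribed strand only, with 0 tags on the opposite strand in the 6 libraries. The ΔE2 libraries had 12 tags in replicate 1 and 22 in replicates 2 and 3 counted together. The WT libraries had 3, 13 and 17 tags. Per 1000000 tags of the library, these were 178 and 335 in ΔE2, against 84.7, 175 and 137 in WT. The ΔE2 values were all higher than the WT values, but ΔE2 replicate 1 and WT replicate 2 were 178 and 175, well within counting error of each other (95% Poisson intervals 92.2 to 312 and 93.4 to 300.0).

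The mean was 257 ± 111 tags per 1000000 in ΔE2 (SD, n = 2) and 132 ± 45.5 in WT (SD, n = 3), a ratio of 1.94. The difference was 124 and the pooled SD 73.9, from 2 and 3 libraries, given as a description only. Of the 24 listed events with at least 10 forelimb tags, 4, or 16.7%, had both ΔE2 libraries above all WT libraries, Fgfr2 among them, and 3, or 12.5%, had both below. These 24 events come from 20 genes and are not independent. Those below include repeated events of Col2a1 with the same span, so its tags count more than once. The separation ended when a molecule found in several libraries was kept in the one that read it most. Done within genotypes, that raised the highest WT library to 206, and over all 6 libraries to 213, where ΔE2 replicate 1 had 184. It also ended when tags were scaled to those in the spans of all listed events. By reads in place of tags the libraries overlapped as well. Span reads per 1000000 reads were 23.6 and 434 in ΔE2, against 18.5, 418 and 112 in WT.

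**Figure D3:**
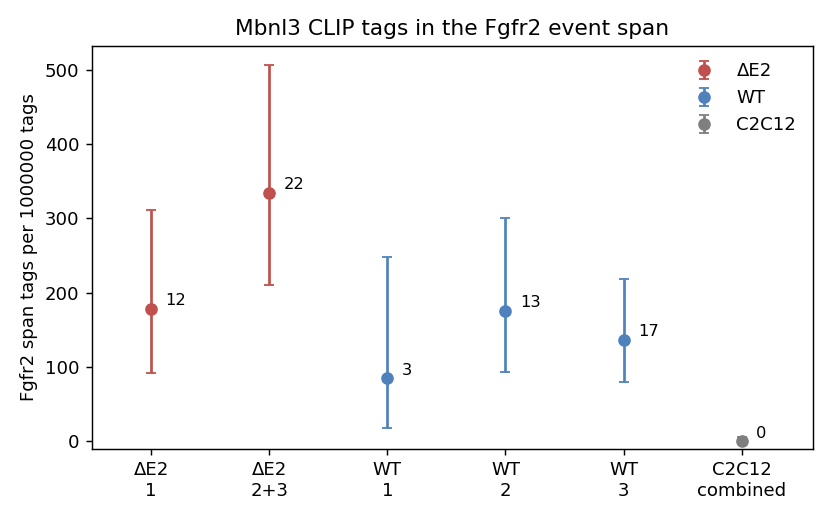
Mbnl3 CLIP tags in the Fgfr2 span per 1000000 tags of each library, with 95% Poisson intervals and the number of tags beside each point. For C2C12 the bar ends at the level of 3 counts. ΔE2 libraries stood at 178 and 335 and WT libraries at 84.7, 175 and 137, with overlapping intervals, and C2C12 had 0 tags.

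Fgfr2 was the event with the densest tags in the table. Per 1000000 tags and 1000 nt of span, it had 92.8 tags in ΔE2 and 51.2 in WT, while the medians over the 98 events were 1.35 in ΔE2 and 1.49 in WT. This rank is part of why the gene was chosen. The nearest in WT density was U2af2, a splicing factor that recognises the polypyrimidine tract, with 34.4 in ΔE2 and 30.8 in WT. Col2a1, the main cartilage collagen, followed with 5.60 in ΔE2 and 15.9 in WT, and Sema3f, a secreted guidance cue, with 11.6 in ΔE2 and 14.8 in WT. On the log2 scale, the summed level of Fgfr2 in ΔE2 over WT was 0.86, within a range of -1.51 to 2.04 (median 0.20) for the 24 events with at least 10 forelimb tags. As these come from 20 genes, repeated events of a gene count more than once in the median.

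The tags were not spread over the span but gathered towards its 3′ end, in 6 groups of overlapping tags. The group with the most tags in WT ran from 137342219 to 137342352, at 287 to 420 nt from the 3′ end of the span. It had 3 and 7 tags in the ΔE2 libraries and 2, 5 and 8 in the WT libraries, and it was the only group with a tag in all 5. It lies wholly in the intron after the listed exon if the downstream exon is at most 286 nt long. Its molecules were also read most often, up to 3433 times for 1 tag, with 10417 reads in ΔE2 replicate 3 but 18 in ΔE2 replicate 1, and with 34, 2260 and 776 reads in the WT libraries.

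The group at the very 3′ end, from 137341918 to 137342028, had 3 and 9 tags in the ΔE2 libraries and 0, 7 and 3 in the WT libraries. Beside it, from 137342045 to 137342119, the ΔE2 libraries had 3 tags each and the WT libraries 0, 0 and 3. The group at the 3′ end runs past the end of the span, so no split of the flanking exons puts it wholly in the intron. How much of it lies in the downstream exon depends on the length of that exon, which the table does not give. The group beside it lies wholly in the intron if the downstream exon is at most 112 nt long. The edge of the first group at 137341918 comes from placing tags by midpoint. A stretch from 137341907 to 137341945, counted beyond the span with 2 tags in ΔE2 and 2 in WT, overlaps it. Per 1000000 tags, the group at the 3′ end had a summed level of 90.2 in ΔE2 (95% Poisson interval 46.6 to 158) and 42.8 in WT (20.5 to 78.6), and intervals overlapped likewise for each of the other 5 groups.

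Further upstream the tags were few. From 137343072 to 137343125 there were 2 tags in ΔE2 and 1 in WT, and from 137343147 to 137343193 there were 3 tags in each genotype. The stretch with 3 tags per genotype lies in the intron after the listed exon, in the part of it next to that exon, if the downstream exon is at least 67 nt long. A single tag per genotype, from 137344231 to 137344267, fell in the intron before the listed exon. No tag fell in the upstream exon under any split of the flanking exons. The listed exon itself held at most 3 tags per genotype, and 0 when the downstream exon was taken as 60 nt or more.

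**Figure D4:**
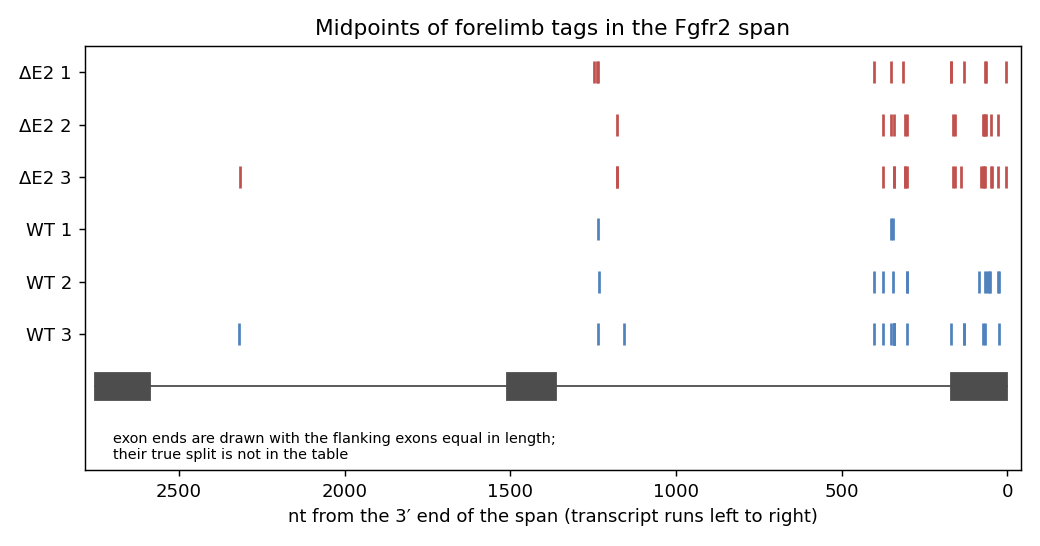
Midpoints of the forelimb tags over the Fgfr2 span, as distance in nt from the 3′ end of the span, 1 row per library as labelled, above a drawing of exons (boxes) and introns (line) with the flanking exons set equal. Tags gather within 420 nt of the 3′ end in both genotypes and miss the listed exon as drawn.

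With the flanking exons taken as equal, 18 of 34 ΔE2 tags were intronic, or 52.9% (95% Wilson interval 36.7 to 68.5), and 21 of 33 WT tags, or 63.6% (46.6 to 77.8). The 33 WT tags hold only 25 distinct molecules, so the WT interval treats repeats of a molecule as separate counts. Counted once per position, the intronic shares were 51.5% in ΔE2 and 56.5% in WT. Introns make up 82.4% of the length of the span. Over all splits of the flanking exons in steps of 10 nt, the intronic share ran from 35.3% to 85.3% in ΔE2 and from 51.5% to 90.9% in WT.

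The tags did not stop at the end of the event. In the 1000 nt next to the span on its 3′ side, on the same strand, there were 15 and 14 tags in the ΔE2 libraries and 5, 10 and 15 in the WT libraries. That is 223 and 213 per 1000000 in ΔE2, against 141, 135 and 121 in WT, so the genotypes did not overlap as counted. No share of such separations was taken over the flanks of other events, so nothing is read from it. In this stretch the genotypes stayed apart when shared molecules were kept in 1 library, within genotypes or over all 6. They overlapped when tags were scaled to those in all event spans, with 174 in the lowest ΔE2 library and 206 in the highest WT library, and among tags of at least 2 reads, with 173 in the lowest ΔE2 library and 213 in the highest WT library. Most of these tags lay in stretches from 137341150 to 137341295, with 13 tags in ΔE2 and 7 in WT, and from 137341329 to 137341449, with 11 in ΔE2 and 15 in WT. No gene part is assigned to them. Further than 1000 nt on the 3′ side, each bin of 1000 nt held at most 5 tags per genotype, and the 10000 nt on the 5′ side held 2 tags in ΔE2 and 0 in WT.

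The span took a like part of the local tags in both genotypes. Of the tags in the span and the 10000 nt on either side, 34.3% and 50% lay in the span in the ΔE2 libraries, against 37.5%, 50% and 42.5% in the WT libraries. These shares overlapped. The part of the amount of Fgfr2 RNA in the levels per 1000000 tags was not tested.

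**Figure D5:**
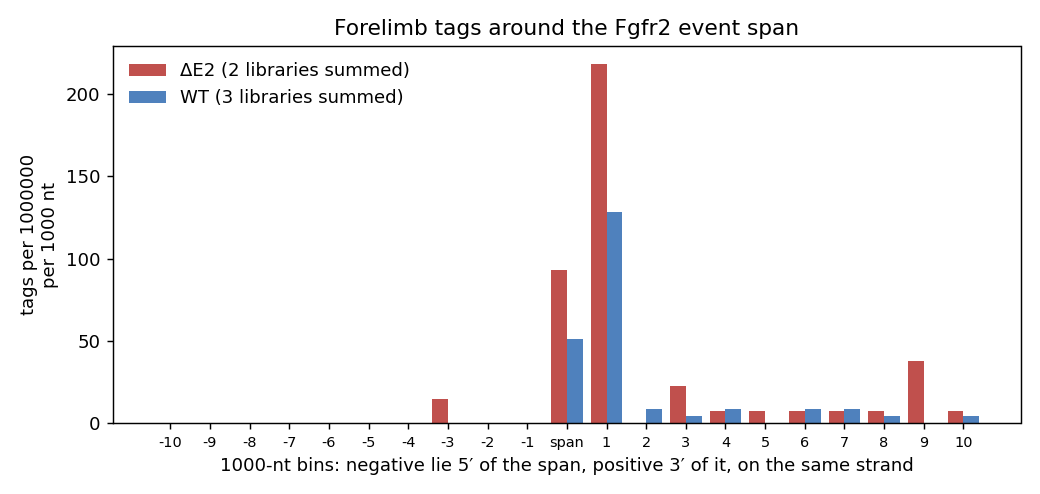
Summed forelimb tags per 1000000 tags and 1000 nt in the Fgfr2 span and in bins of 1000 nt to 10000 nt on either side, on the same strand, with ΔE2 left of WT in each bin. Tags concentrate in the span (92.8 in ΔE2 and 51.2 in WT) and in the first bin on its 3′ side (218 in ΔE2 and 128 in WT).

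C2C12 myoblasts gave no tags in the Fgfr2 span or in the 10000 nt on either side of it, on the transcribed strand, and the rest of the gene was not counted. The combined set of 550124 distinct molecules had 0 in the span, against a limit taken as 3 counts, or 5.45 per 1000000 (counting error only). The 3 WT forelimb libraries summed had 33 tags or 141 per 1000000 (95% Poisson interval 97.1 to 198). The WT level was 25.9 times the limit for C2C12, or 23 times without WT replicate 2 and 23.6 times with each WT molecule counted once over the 3 libraries. At the lowest 95% Poisson limit among these counts of WT, found without replicate 2, WT stood at 76.5 per 1000000. That is 14 times the 3-count limit of C2C12. The upper end of the 2-sided 95% Poisson interval for 0 C2C12 tags is higher, 6.71 per 1000000, and gives a smaller ratio. Of the 24 events with at least 10 forelimb tags, 2 had no C2C12 tag, Fgfr2 being 1 of these. RNA of C2C12 cells was not measured in this series, so less binding and less Fgfr2 RNA cannot be told apart, and C2C12 tags were 26 to 30 nt long while forelimb tags were 19 to 38 nt.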

How the data were processed

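CLIP tags were aligned with Novoalign, per the submitters' processing notes, which give no version. Each deposited line is 1 tag with a 5-base barcode and, in forelimb files, its number of reads. The score the authors deposited per tag has no stated meaning and was not used. Tags were counted as lines, with C2C12 lines (677787) and the lines of ΔE2 replicates 2 and 3 counted once per position, strand and barcode. A tag was placed by its midpoint. Library means of reads per tag ran from 61.8 to 428 in forelimb, with single tags of the Fgfr2 span read 1 to 3433 times, and Poisson intervals and floors cover counting error only.

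For RNA-seq, the submitters' processing notes name TopHat 1.3.2, Bowtie and the mm9 build. Made from those alignments, the deposited table gives estimated counts of tags per isoform and junction as 1 total per group, an odds ratio, and Fisher and adjusted p-values, per the file headers. A header of it names Mbnl2 for the mutant, hence "knockout column". Inclusion differences were recomputed within 0.05 points for 98 of 98 events. Read as exon start to exon end, event names gave exon lengths divisible by 3 in 59 of 98 events, against 16 and 23 with exons 1 nt longer or shorter.

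Replicates are labelled as biological. Genes other than Fgfr2 were named by 3 rules: the 3 closest pairs of inclusion, the 3 closest WT tag densities, and members of 6 lists. The gene, the lists and the rules were chosen with earlier results of these data known, and placement of tags assumed a split of the flanking exons that the table lacks. Tools were numpy 2.4.6, scipy 1.17.1, pandas 2.3.3 and, for plots, matplotlib 3.10.9, under Python 3.11.15.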

Additional observations from a re-analysis of the deposited data

How the results depend on the processing

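The exon change was -13.5 points with the upstream inclusion junction alone, -10.6 points with the authors' isoform totals, and 1.93 points with the downstream junction alone, a turn of sign on 8.62 tags in the knockout column and 2.60 in the WT column of the authors' deposited table. The ΔE2 minus WT difference in span tags, 124 per 1000000, stayed positive in all 16 alternatives, from 77.1 with scaling to tags in event spans to 202 without ΔE2 replicate 1. Leaving out single libraries gave 100.5 to 202. With shared molecules given to 1 library over all 6, an alternative chosen after seeing the data, it was 181. The C2C12 minus WT difference, -141, ran from -151 to -125 without single WT libraries. Intronic shares depended on the length assumed for the downstream exon, also chosen after seeing the data. With 60 nt they were 85.3% in ΔE2 and 81.8% in WT, and the cause is that more tags of the 3′ groups then count as intronic. With the 6 libraries as labelled and the replicate number as a block, also chosen after seeing the data, the difference in span tags was 155, from 93.6, 170 and 202 within numbers 1, 2 and 3. The labels tie no animals to these numbers, ΔE2 replicates 2 and 3 share molecules, and the exon table has 1 total per group and no pairs. In the first 1000 nt on the 3′ side the difference of 85.7 stayed positive in the same 16 alternatives, added after seeing the data, from 42.9 to 101. Depth limits the groups of tags, the largest of which held 25 tags, 10 in ΔE2 and 15 in WT, from 19 distinct molecules.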
